A study of Arabidopsis thaliana with 6 samples.

Results

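The 9 genes described here encode the enzymes of the general phenylpropanoid pathway of Arabidopsis thaliana. They are PAL1 to PAL4, C4H, 4CL1, 4CL2, 4CL3 and 4CL5, picked by name out of 27655 genes in the deposited table, with earlier results of these data known. RNA was sequenced from whole seedlings aged 10 days, kept at 22 °C under days of 16 h light and nights of 8 h. Wild type Col gave 3 libraries and a line labelled h3.3ko;HTR5 gave 3. That name joins a knockout of H3.3, the histone H3 variant loaded onto chromatin outside DNA replication, with HTR5, a gene that encodes it. The sources used here do not say how the line was built or which promoter drives HTR5. The question put to the 9 genes is whether their transcript levels differed between the line and wild type.

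Phenylalanine ammonia-lyase (PAL) removes ammonia from phenylalanine and gives cinnamate. Cinnamate 4-hydroxylase (C4H), a cytochrome P450, turns cinnamate into p-coumarate, and 4-coumarate:CoA ligase (4CL) joins p-coumarate to coenzyme A. The p-coumaroyl-CoA that leaves this sequence feeds lignin, sinapate esters, coumarins, flavonols and anthocyanins, which in seedlings serve water transport, ultraviolet screening and defence.

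The values are TPM, in which the reads of a gene are divided by its length and scaled to a fixed library total. The depth recovered from the TPM was 13792031 to 14498093 reads per library. The H3.3 gene HTR8 was at 289 to 324 TPM in Col but only 3.19 to 5.2 TPM in h3.3ko;HTR5. HTR4 ranged over 309 to 331 TPM in Col against 148 to 155 TPM, and HTR5 over 403 to 423 TPM against 289.7 to 298 TPM. Nothing in the labels ties the libraries to separate cultures or plants, so the p-values speak of the scatter of these 6 samples alone, and that scatter may be technical. In whole seedlings, fewer cells that express a gene and less RNA per cell cannot be told apart. Leaf markers did not overlap between the groups in their sum, which ran from 35420 to 37620 TPM in Col and from 38070 to 39900 TPM in h3.3ko;HTR5. Summed root markers ran from 1986 to 2002 and from 1759 to 1944 TPM, and summed markers of xylem and secondary wall from 145 to 171 and from 169 to 172 TPM. Single genes made up most of the leaf and root sums. RBCS1A averaged 22360 TPM in Col and 23990 TPM in h3.3ko;HTR5, and PYK10 averaged 1934 and 1775 TPM. A negative log2 fold change was found for 1 of 5 tested leaf markers (GAPA) and for 3 of 5 tested root markers. Of these 17 tested marker genes 1 passed the test, the leaf gene CA1 for carbonic anhydrase (2395 ± 73.1 and 2836 ± 72.2 TPM, SD, n = 3, limma adjusted p = 0.00253), and their part in the results was not tested.

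All 9 entry-enzyme genes were expressed highly enough to be tested, and 4 fell in h3.3ko;HTR5 while none rose (limma, two-sided, adjusted p under 0.05 with Benjamini-Hochberg adjustment over 19013 genes). That is 44.4% of them, against 12.0% of all tested genes, with 8.32% of all tested genes lower and 3.7% higher. The genes that fell were PAL1, PAL2, 4CL1 and 4CL3, by 14.9% to 35.7% of their Col means. PAL3, PAL4, C4H, 4CL2 and 4CL5 did not pass the test. By mean TPM from exon length, PAL1, PAL2 and 4CL1 were above 96.1% to 97.3% of tested genes, 4CL3 above 59.8% and C4H above 98.7%. The share of 12.0% is over genes of all levels tested and is not matched to these. The median log2 fold change was -0.23 over the 9 genes and -0.034 over all tested genes. The 4 calls were made again in each of 14 other settings, which included other scalings, exon length in place of gene span and the loss of each library in turn.

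**Figure D1:**
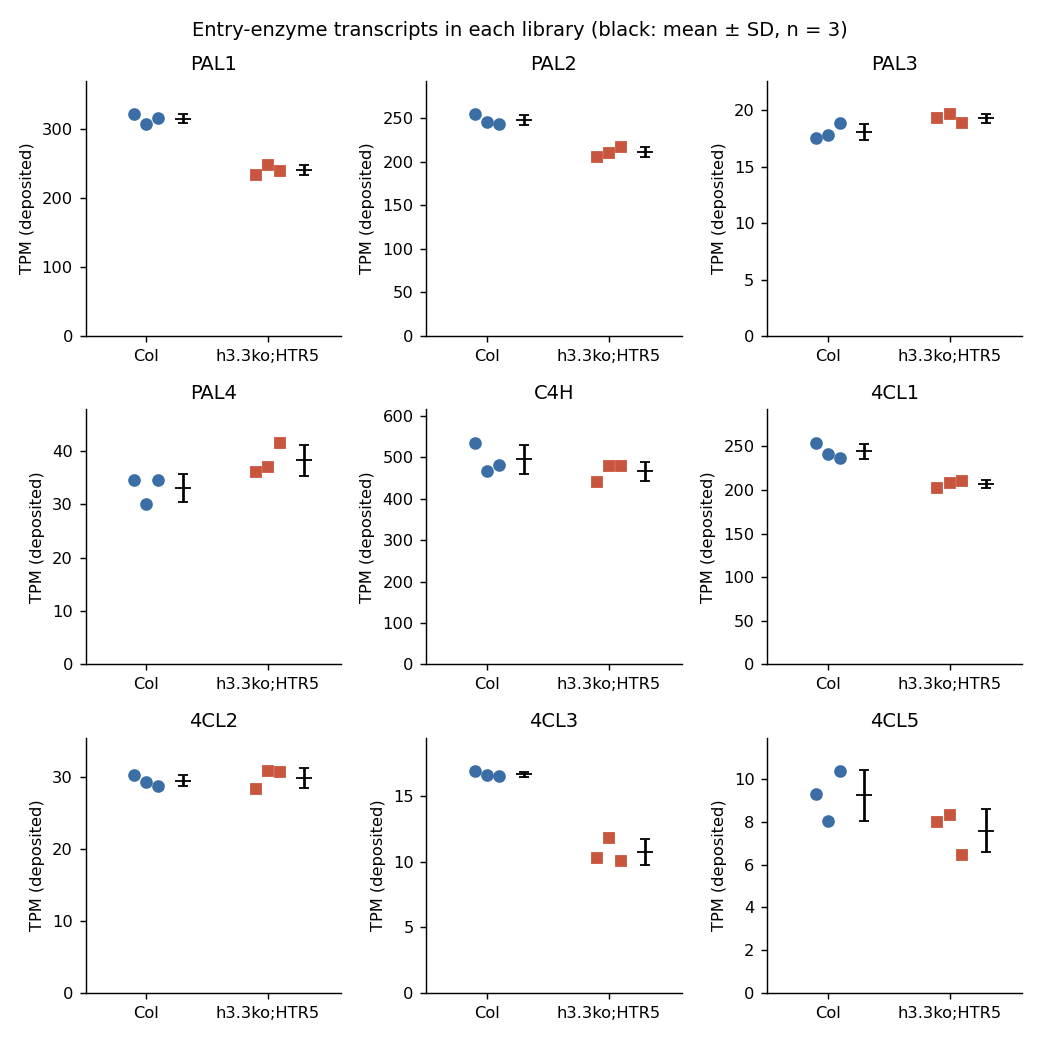
Deposited TPM (vertical axes, from 0) of the 9 entry-enzyme genes in each of 3 Col libraries (blue circles) and 3 h3.3ko;HTR5 libraries (red squares), with the mean ± SD beside them. For PAL1, PAL2, 4CL1 and 4CL3 every h3.3ko;HTR5 library lies below every Col library, and for PAL4 every one lies above. The share of all tested genes that separate in this way was not counted.

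PAL1 (AT2G37040, chromosome 2, 15557367 to 15560755, minus strand, TAIR10.1) encodes the most abundant PAL transcript of these seedlings. It stood at 321, 307 and 315 TPM in Col replicates 1 to 3 against 233, 248 and 239 TPM in h3.3ko;HTR5 replicates 1 to 3. The groups did not overlap, and each library rested on 5093 to 7028 reads of the gene. How many of all tested genes lacked overlap was not counted, so separation here and below is a description. PAL1 fell by 23.6% (log2 fold change -0.39 ± 0.04 SE, limma adjusted p = 4.11e-04).

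PAL2 (AT3G53260, chromosome 3, 19744018 to 19747114, minus strand) is known to act beside PAL1 in supplying cinnamate. It read 255, 246 and 243 TPM in Col and 205.5, 211 and 217 TPM in h3.3ko;HTR5, again with no overlap. PAL2 fell by 14.9% (log2 fold change -0.23 ± 0.04 SE, limma adjusted p = 0.00573). The coding sequences of PAL1 and PAL2 are 82.6% identical, the closest pair of the family. In each gene 31 exon windows of 50 bases also occur at another place in the genome, 1.09% of those of PAL1 and 1.11% of those of PAL2.

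PAL4 (AT3G10340, chromosome 3, 3203988 to 3208135, plus strand) went the other way in level. It stood at 34.6, 30.1 and 34.6 TPM in Col against 36.1, 37.0 and 41.5 TPM in h3.3ko;HTR5. Every h3.3ko;HTR5 library was above every Col library, but the difference did not pass the test (log2 fold change 0.20, 95% interval 0.03 to 0.37, limma adjusted p = 0.129). It passed in 1 of the 14 other settings, limma's voom on recovered reads (adjusted p = 0.0345). PAL3 (AT5G04230, chromosome 5, 1160569 to 1163957, plus strand) is the PAL gene with the lowest level. It read 17.6, 17.8 and 18.9 TPM in Col and 19.3, 19.6 and 18.8 TPM in h3.3ko;HTR5, so that the groups met (log2 fold change 0.09, 95% interval -0.07 to 0.24, limma adjusted p = 0.465). PAL3 and PAL4 are 76.6% identical in their coding sequences, against 65.8% to 71.8% with PAL1 or PAL2. The genes of the PAL1 and PAL2 pair thus both fell, while those of the other pair did not pass the test and had positive estimates.

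C4H (AT2G30490, chromosome 2, 12993625 to 12996012, minus strand) is the single cinnamate 4-hydroxylase gene of Arabidopsis. It stood at 536, 468 and 483 TPM in Col against 439.8, 479.9 and 479 TPM in h3.3ko;HTR5. Col replicate 1 was the highest library and h3.3ko;HTR5 replicate 1 the lowest, and the other 4 lay close together. The difference did not pass (log2 fold change -0.09, 95% interval -0.21 to 0.04, limma adjusted p = 0.377, and 0.252 to 0.765 over the other settings). A decrease as large as that of PAL1 lies outside this interval.

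4CL1 (AT1G51680, chromosome 1, 19158746 to 19161737, minus strand) encodes the main 4CL of lignin synthesis. It read 254, 241 and 237 TPM in Col and 202, 207 and 211 TPM in h3.3ko;HTR5. The lowest Col library was above the highest of the other group. 4CL1 fell by 15.3% (log2 fold change -0.24 ± 0.04 SE, limma adjusted p = 0.00600), a decrease of the size seen for PAL2. The gene overlaps AT1G51670 on the other strand by 24 bases, and that neighbour rose from 0.681 ± 0.252 to 1.66 ± 0.192 TPM (SD, n = 3, log2 fold change 0.67, limma adjusted p = 0.0437).

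4CL3 (AT1G65060, chromosome 1, 24167202 to 24171635, minus strand) is the isoform linked to flavonoid synthesis, and among the 9 genes it had the lowest log2 fold change. It stood at 16.9, 16.6 and 16.5 TPM in Col against 10.3, 11.8 and 10.0 TPM in h3.3ko;HTR5. The Col libraries lay close together (SD 0.197 TPM), and all h3.3ko;HTR5 libraries were below them. 4CL3 fell by 35.7% (log2 fold change -0.60 ± 0.08 SE, limma adjusted p = 0.00189). Of all tested genes 3.18% had a lower log2 fold change than 4CL3, 7.48% a lower one than PAL1, 16.2% a lower one than 4CL1 and 16.7% a lower one than PAL2.

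4CL2 (AT3G21240, chromosome 3, 7454269 to 7457404) and 4CL5 (AT3G21230, 7448040 to 7452106) lie in tandem on the minus strand, 2162 bases apart with no annotated gene between them. 4CL2, the closest relative of 4CL1 in coding sequence (79.4% identical), read 30.2, 29.25 and 28.7 TPM in Col and 28.2, 30.7 and 30.6 TPM in h3.3ko;HTR5. The values of the groups were interleaved (log2 fold change 0.02, 95% interval -0.12 to 0.16, limma adjusted p = 0.879). 4CL5, an isoform that also accepts sinapate, read 9.31, 8.02 and 10.4 TPM in Col and 8.01, 8.31 and 6.47 TPM in h3.3ko;HTR5. Its libraries overlapped, and with 166 to 264 reads per library its interval was the widest of the 9 (log2 fold change -0.25, 95% interval -0.53 to 0.02, limma adjusted p = 0.222). 4CL5 overlaps AT3G21220 on the other strand by 459 bases. AT3G21220 itself went from 21.0 ± 0.915 to 16.3 ± 0.443 TPM (SD, n = 3, limma adjusted p = 0.0108), and without a stated strand setting, reads of the overlap cannot be told apart. Of the 9 genes only 4CL1 and 4CL5 overlap another annotated gene, and only PAL1 and PAL2 share any exon window of 50 bases with another place in the genome.

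**Figure D2:**
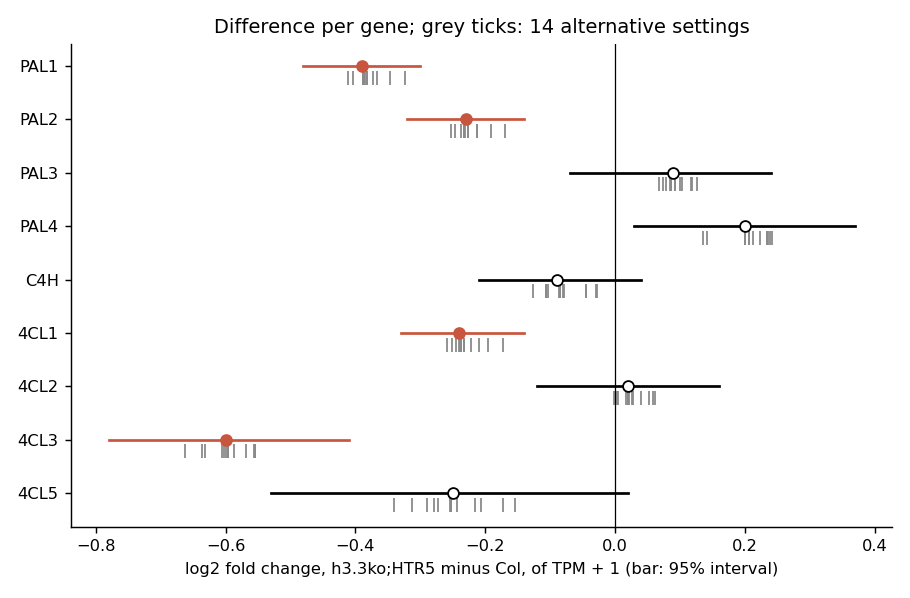
Log2 fold change of each entry-enzyme gene, h3.3ko;HTR5 minus Col, on the log2(TPM + 1) scale (points) with its 95% interval (bars). Filled red points passed the test and open points did not, and grey ticks give the estimate in the 14 other settings. PAL1, PAL2, 4CL1 and 4CL3 lie left of 0 in all of them.

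The bases before the gene starts are shown for the PAL pair that fell together and for 4CL3, the gene with the lowest log2 fold change. Each run is the 300 bases before the annotated start, 5′ to 3′ on the strand of the gene, from the RefSeq TAIR10.1 genome. In the PAL sequences capitals mark the longest run that both windows hold, picked after the sequences had been seen. In 4CL3 capitals mark the AC-I element, a known binding site of MYB factors in phenylpropanoid genes.
PAL1, chr2:15560756-15561055, minus strand: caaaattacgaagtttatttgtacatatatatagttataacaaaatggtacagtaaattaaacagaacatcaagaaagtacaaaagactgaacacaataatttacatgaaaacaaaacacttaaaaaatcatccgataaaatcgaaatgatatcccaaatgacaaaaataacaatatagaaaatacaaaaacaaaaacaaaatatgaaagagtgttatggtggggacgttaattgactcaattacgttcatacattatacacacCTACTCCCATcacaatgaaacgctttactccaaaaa
PAL2, chr3:19747115-19747414, minus strand: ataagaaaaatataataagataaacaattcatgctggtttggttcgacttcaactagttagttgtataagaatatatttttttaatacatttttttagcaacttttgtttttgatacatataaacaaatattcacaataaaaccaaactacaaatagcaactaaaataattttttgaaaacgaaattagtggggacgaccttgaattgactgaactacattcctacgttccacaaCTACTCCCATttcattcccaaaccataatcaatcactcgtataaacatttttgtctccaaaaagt
4CL3, chr1:24171636-24171935, minus strand: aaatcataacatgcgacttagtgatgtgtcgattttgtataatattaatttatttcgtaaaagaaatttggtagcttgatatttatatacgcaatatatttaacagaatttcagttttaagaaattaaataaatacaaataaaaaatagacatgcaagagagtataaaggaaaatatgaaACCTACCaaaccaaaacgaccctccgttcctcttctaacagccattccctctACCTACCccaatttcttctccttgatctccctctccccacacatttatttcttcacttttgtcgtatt

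The run of 10 bases shared by PAL1 and PAL2 ends 27 bases before the start of PAL1 and 56 before that of PAL2. It is present, on either strand, in 11 of 27443 windows of protein-coding nuclear genes (0.0401%). These include the windows of PAL1 and PAL2, from which the run was picked, so the share is a description and no test. How often windows of unrelated genes share a run of this length was not tested. The motifs searched on both strands were AC-I (ACCTACC), AC-II (ACCAACC), AC-III (ACCTAAC) and the G-box (CACGTG), and no matches overlapped. 4CL3 holds AC-I at 120 to 114 and at 68 to 62 bases before its start, a motif found in 1.33% of all windows. 4CL2 holds AC-II, found in 3.18% of all windows, at 140 to 134 and at 31 to 25 bases. The window of 4CL2 runs into AT3G21250, which ends 28 bases upstream. PAL4 holds a G-box, found in 7.09% of all windows, at 117 to 112 bases. The windows of PAL1, PAL2, PAL3, C4H, 4CL1 and 4CL5 hold none of these letters. Bases further upstream or inside the annotated genes were not searched. AC elements were thus present before a 4CL gene that fell and before another that did not pass the test.

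To set the genes against each other, TPM was recomputed with exon length, since the deposited values follow the full span of each gene with its introns. In Col, C4H was highest at 432 ± 31.1 TPM from exon length (SD, n = 3), followed by PAL1 at 276 ± 5.92, 4CL1 at 217 ± 7.9 and PAL2 at 202 ± 4.94. The other genes were several times lower. PAL4 stood at 38.4 ± 3.02, 4CL2 at 33.5 ± 0.86, 4CL3 at 25.4 ± 0.3, PAL3 at 17.9 ± 0.675 and 4CL5 at 12.3 ± 1.56 TPM from exon length. The libraries of neighbours in this order did not overlap, but PAL4 and 4CL2 came within 1 TPM of each other (34.9 and 34.4 in their closest libraries). In h3.3ko;HTR5 the order was the same except for 4CL3, which at 15.4 to 18.0 TPM from exon length was below PAL3 at 18.7 to 19.4. The genes that fell include 3 of the 4 most abundant entry-enzyme transcripts, and C4H is the other.

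Summed over each family, both PAL and 4CL transcripts were lower in every h3.3ko;HTR5 library. Summed PAL stood at 628, 601 and 611 TPM as deposited in Col against 494, 515 and 516 TPM in h3.3ko;HTR5, 0.829 of the Col mean. Summed 4CL stood at 310.4, 295 and 292 TPM in Col against 249, 258 and 258 TPM in h3.3ko;HTR5, 0.852 of the Col mean. For each of these sums the exact two-sided permutation test gave p = 0.1, the smallest value that 3 libraries against 3 allow. With exon length the sums were 0.838 and 0.851 of the Col mean. The ratio of C4H to summed PAL, from exon length, was 0.807 ± 0.0404 in Col and 0.910 ± 0.0228 in h3.3ko;HTR5 (SD, n = 3, exact permutation p = 0.1).

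The shares of single genes in each family were compared in the same way, from exon length. PAL1 made up 51.5%, 51.6% and 51.8% of summed PAL in Col and 47.3%, 48.2% and 46.3% in h3.3ko;HTR5 (exact permutation p = 0.1). The share of PAL3 and PAL4 together was 10.5% ± 0.487 in Col and 14.2% ± 0.478 in h3.3ko;HTR5 (SD, n = 3, exact permutation p = 0.1). PAL2 held 37.8% ± 0.612 and 38.6% ± 0.510 of the sum, with overlapping libraries. In the 4CL family 4CL1 held 75.3% ± 0.602 and 75.3% ± 0.973 of the sum (exact permutation p = 1.0). The share of 4CL3 was 8.80% ± 0.165 in Col and 6.67% ± 0.526 in h3.3ko;HTR5, without overlap (exact permutation p = 0.1). That of 4CL2 was 11.6% ± 0.103 and 13.9% ± 0.359, also without overlap (exact permutation p = 0.1). A share depends on the other genes of its sum and can rise without a rise in level. The mean level of 4CL2 was 33.5 TPM from exon length in Col and 34.1 in h3.3ko;HTR5. In level, PAL3, PAL4 and 4CL2 did not pass the limma test. In all 12 such sums, shares and ratios were compared, and 3 libraries against 3 allow none of them to pass a threshold of 0.05.

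**Figure D3:**
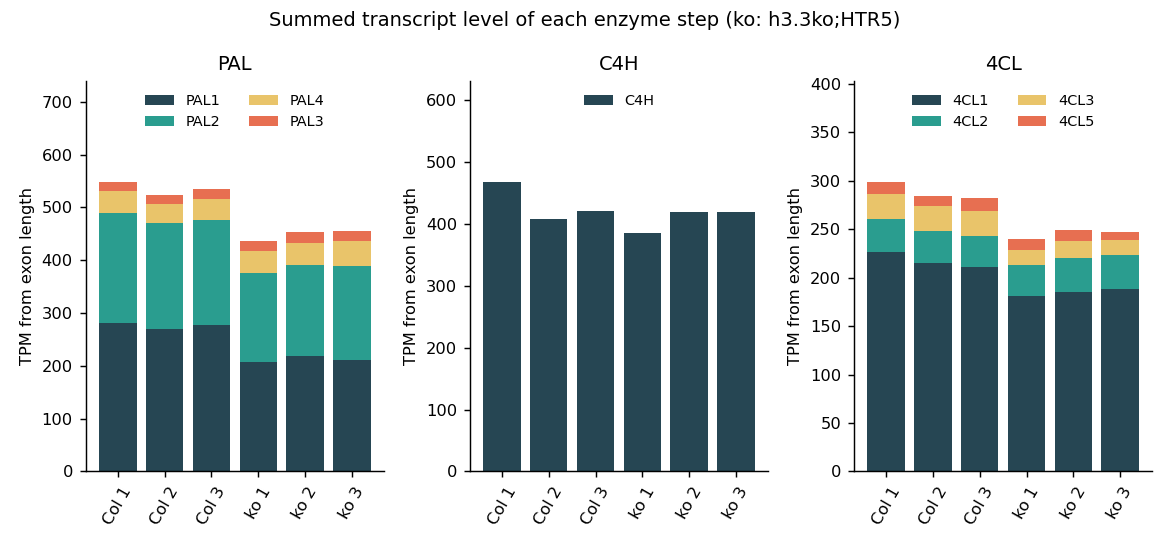
Summed TPM from exon length (vertical axes, from 0) of the PAL genes, C4H and the 4CL genes in each Col and h3.3ko;HTR5 library, with colours for the genes. Summed PAL and 4CL are lower in each h3.3ko;HTR5 library than in any Col library, while C4H overlaps between the groups.

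Upstream, genes that make phenylalanine were lower in part. Of 20 genes from the shikimate pathway to arogenate dehydratase 19 were tested, of which 7 fell, none rose and 12 did not pass (median log2 fold change -0.15). The called genes were 36.8% of those tested in this list, against 12.0% of all tested genes. That background is not matched in level, and the list was chosen with earlier results of these data known. The lowest log2 fold changes of the list were those of ADT5 and ADT4, arogenate dehydratases that catalyse the last step to phenylalanine. ADT5 (AT5G22630) read 98.3, 91.2 and 86.7 TPM in Col and 56.5, 63.0 and 54.2 TPM in h3.3ko;HTR5 (log2 fold change -0.66 ± 0.07 SE, limma adjusted p = 3.76e-04). ADT4 (AT3G44720) read 88.9, 75.4 and 72.7 TPM in Col and 52.7, 50.98 and 49.3 TPM in h3.3ko;HTR5 (log2 fold change -0.62 ± 0.07 SE, limma adjusted p = 7.97e-04). In both genes the groups did not overlap. ADT1 (AT1G11790), which overlaps AT1G11800, fell from 17.4 ± 1.01 to 13.4 ± 0.144 TPM (SD, n = 3), and ADT2 and ADT3 stood at 20.1 and 21.4 and at 64.0 and 57.7 TPM without passing. ADT6, which overlaps AT1G08260, is listed at 0 in all libraries, and how reads of an overlap were counted is not given.

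In the shikimate pathway DHS1, DHS3 and EPSPS-2 passed the test and the other genes listed did not. Between that pathway and arogenate dehydratase CM1 (AT3G29200) passed. It fell from 68.2 ± 3.95 to 58.9 ± 0.858 TPM (SD, n = 3, limma adjusted p = 0.0389), a call made in 6 of the 14 other settings. DHS3 (AT1G22410) and DHS1 (AT4G39980), synthases of the first shikimate pathway intermediate, both fell. DHS3 averaged 210.0 ± 5.44 TPM in Col against 182 ± 7.85 TPM (SD, n = 3, limma adjusted p = 0.0178), and DHS1 averaged 70.0 ± 4.66 against 59.6 ± 2.04 TPM (limma adjusted p = 0.0358). EPSPS-2 (AT2G45300), a gene for EPSP synthase that shares 4.17% of its exon windows with another place, fell from 51.1 ± 0.404 to 43.2 ± 1.21 TPM (SD, n = 3, limma adjusted p = 0.0164). The calls of ADT1, ADT4 and ADT5 were made in all 14 other settings, but the count of 7 was 3 when either Col replicate 3 or h3.3ko;HTR5 replicate 1 was left out. It was 4 when h3.3ko;HTR5 replicate 3 was. That none rose also depends on the setting. CM3 (AT1G69370), which overlaps AT1G69380, was 34.6% higher in h3.3ko;HTR5 without overlap of the groups. It did not pass (limma adjusted p = 0.0583), but passed as higher in 6 of the 14 other settings.

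Among genes whose proteins act on or with the entry enzymes, 1 passed the test, where 12.0% of all tested genes did. With 5 and 3 genes tested, so small a count does not set these lists apart from the rest. Of 5 redox partners and membrane scaffolds of C4H, ATR2 (AT4G30210) fell, a cytochrome P450 reductase known for phenylpropanoid metabolism. It went from 97.7 ± 2.82 to 82.2 ± 2.89 TPM (SD, n = 3, limma adjusted p = 0.00997), a call made in all other settings. Its paralogue ATR1 stood at 60.7 ± 1.18 and 58.3 ± 2.58 TPM. None of 3 tested Kelch F-box genes whose proteins mark PAL for degradation passed the test, with limma here and in the other settings, voom included, and none had an unadjusted p under 0.05. KFB50 (AT3G59940) stood at 209 ± 6.07 and 204 ± 50.9 TPM and KFB20 (AT1G80440) at 168 ± 33.7 and 197 ± 37.4 TPM.

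The branches that use p-coumaroyl-CoA differed in how many genes passed, in short lists whose differences were not tested. Over all tested genes 12.0% passed, with 8.32% lower and 3.7% higher. All 6 early flavonoid genes listed fell (median log2 fold change -0.72). CHS (AT5G13930), chalcone synthase, which overlaps AT5G13940, stood at 782 ± 25.3 and 454 ± 50.2 TPM (SD, n = 3, limma adjusted p = 1.35e-04), and the range of the 6 log2 fold changes was -0.81 to -0.50. The estimate of 4CL3 lies within that range and those of PAL1, PAL2 and 4CL1 lie above it, differences that were not tested.

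Of 10 monolignol genes, which build the units of lignin, 4 fell, none rose and 6 did not pass (median log2 fold change -0.15). COMT1 (AT5G54160), caffeate O-methyltransferase, fell from 346 ± 13.4 to 297 ± 3.82 TPM (SD, n = 3, limma adjusted p = 0.00788), in every other setting as well. CCoAOMT1 (AT4G34050), another O-methyltransferase, fell by 10.5%. F5H1 (AT4G36220), the ferulate 5-hydroxylase of syringyl lignin, fell by 12.8%, and CAD4 (AT3G19450), a cinnamyl alcohol dehydrogenase, fell by 9.06%. They passed in 8, 5 and 4 of the 14 other settings. The list's count was 1 after quantile normalization or median-of-ratios scaling, with a replicate block and when Col replicate 2, h3.3ko;HTR5 replicate 1 or h3.3ko;HTR5 replicate 3 was left out. It was 2 without Col replicate 1. HCT, which takes p-coumaroyl-CoA into this branch, stood at 295 ± 10.9 and 296 ± 9.1 TPM (log2 fold change 0.01, 95% interval -0.09 to 0.10, limma adjusted p = 0.960). None of 5 tested genes of lignin polymerization passed with limma or in the other settings, and none had an unadjusted p under 0.05. Among them the peroxidase gene PRX72 stood at 32.8 ± 1.22 and 32.3 ± 3.6 TPM and the laccase gene LAC17 at 22.1 ± 1.39 and 24.2 ± 1.6 TPM.

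Sinapate ester genes moved in both directions. SNG1 (AT2G22990), which makes sinapoylmalate, the ultraviolet screen of leaves, rose by 46.9%. It read 222, 189 and 211 TPM in Col and 292, 299 and 324 TPM in h3.3ko;HTR5, with no overlap (log2 fold change 0.55 ± 0.06 SE, limma adjusted p = 5.99e-04). UGT84A2 (AT3G21560), which makes the sinapoylglucose that SNG1 uses, fell from 65.4 ± 2.01 to 49.1 ± 2.82 TPM (SD, n = 3, limma adjusted p = 0.00194). Its relative UGT84A3 (AT4G15490) fell from 17.9 ± 1.84 to 10.8 ± 0.997 TPM (SD, n = 3, limma adjusted p = 0.00204). These 3 calls were made in all other settings. Of 5 tested genes in the list 1 rose, 2 fell and 2 did not pass.

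Of 7 coumarin genes 1 rose and 6 did not pass, a called share of 14.3%, near the 12.0% of all tested genes. CYP82C4 (AT4G31940), which hydroxylates fraxetin to sideretin, read 17.8, 18.6 and 26.1 TPM in Col and 47.0, 45.1 and 30.53 TPM in h3.3ko;HTR5 (log2 fold change 0.93 ± 0.17 SE, limma adjusted p = 0.00674). It shares 8.98% of its exon windows with another place in the genome. F6'H1, which starts the branch, stood at 14.9 ± 1.67 and 15.6 ± 1.44 TPM. None of 6 tested 4CL-like ligases passed with limma or in the other settings, and none had an unadjusted p under 0.05. Those with the highest deposited TPM, AT4G05160 and AT5G63380, stood at 38.8 ± 0.28 and 38.4 ± 2.95 TPM and at 32.4 ± 2.36 and 32.1 ± 2.1 TPM.

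Of 14 regulators of the pathway 11 were tested, of which 4 fell, none rose and 7 did not pass (median log2 fold change -0.31). The called share was 36.4%, against 12.0% of all tested genes, which are not matched to this list in level. The list was chosen with earlier results of these data known. Both activators and repressors were among those that fell. MYB4 (AT4G38620), a repressor known to act on C4H, read 33.8, 36.2 and 37.2 TPM in Col and 24.6, 22.6 and 22.9 TPM in h3.3ko;HTR5 (log2 fold change -0.59 ± 0.07 SE, limma adjusted p = 5.61e-04). MYB7 (AT2G16720), a relative of MYB4, fell from 28.0 ± 7.05 to 17.7 ± 1.83 TPM (SD, n = 3, limma adjusted p = 0.0252). MYB12 (AT2G47460), an activator of flavonol genes, fell from 4.61 ± 0.494 to 2.38 ± 0.329 TPM (SD, n = 3, limma adjusted p = 0.00759). HY5 (AT5G11260), a bZIP factor of light signalling, fell from 28.0 ± 2.2 to 22.2 ± 0.303 TPM (SD, n = 3, limma adjusted p = 0.0185). The calls of MYB4 and MYB12 were made in all other settings, and the count of 4 was 2 without h3.3ko;HTR5 replicate 2 or 3. That none rose also depends on the setting. The count of higher regulators was 1 after quantile normalization, with exon length and with voom on recovered reads.

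**Figure D4:**
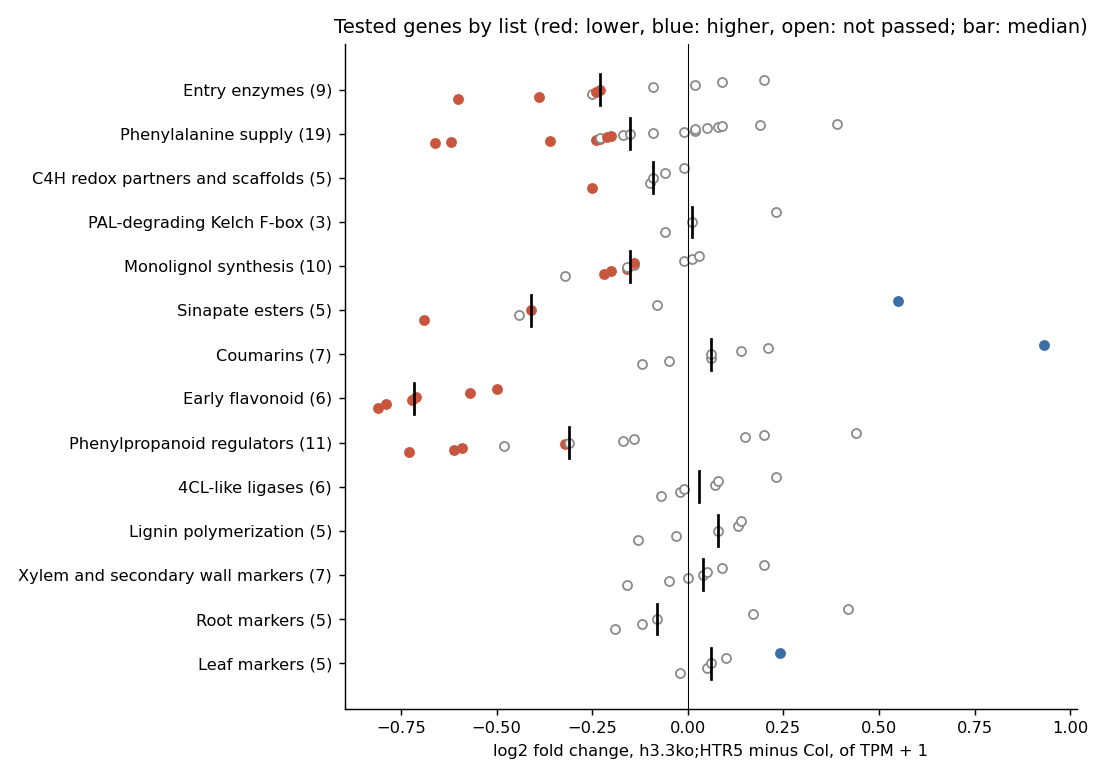
Log2 fold changes, h3.3ko;HTR5 minus Col, on the log2(TPM + 1) scale, for each tested gene (points) of the entry enzymes and of 13 further lists, with the number tested in brackets and the median as a bar. Early flavonoid genes all lie between -0.81 and -0.50, while lignin polymerization, 4CL-like and xylem genes lie around 0.

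Apart from the 9 themselves, the 5 genes whose levels were most like the mean of the 9 over the 6 libraries were AT1G73850, AT2G17500, AT3G55646, RHD2 and ATG18H. Their Pearson correlations were 0.998, 0.996, 0.996, 0.995 and 0.995, over libraries that share the difference between the groups. Of these AT2G17500 passed the test, at 158 ± 11.5 and 112 ± 7.24 TPM in Col and h3.3ko;HTR5 (SD, n = 3, limma adjusted p = 0.00143).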

How the data were processed

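The authors deposited TPM values for 27655 genes. Tools listed in the submitters' processing notes are HISAT2 2.1.10, fastp 0.20.1 and DESeq2 1.26.0, with the build TAIR10, and the tool and strand setting used for counting are not given. TPM multiplied by gene span gave whole reads in all 6 libraries for 22980 of 22985 expressed genes, within 0.02 reads. The deposited values are therefore scaled by gene span, introns included, and different genes are set against each other in TPM recomputed with exon length. Family sums are also given as deposited. Genes with a mean of at least 1 TPM were tested on log2(TPM + 1) with limma 3.58.1 in R 4.3.3 (two-sided, Benjamini-Hochberg adjustment over 19013 genes, threshold 0.05). Fold changes are on that scale, which understates those of low genes. Sums and shares were tested by exact permutation over the 6 libraries. Named beyond the 9 genes were up to 6 genes per list that passed, by lowest adjusted p. Where none passed, the 2 with the highest mean were named. The rule was not kept for the xylem and root markers, and of the early flavonoid genes only CHS was named. Genes outside this rule were chosen after their values were seen. The 9 genes and all lists were chosen with earlier results of these data known. Sequences and positions come from RefSeq TAIR10.1, in which 27445 identifiers (99.2%) matched.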

Additional observations from a re-analysis of the deposited data

How the results depend on the processing

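Of 126 combinations of the 9 genes with 14 alternatives, 125 stayed on their side of the threshold, and PAL4 passed in the other, voom on recovered reads. None of the 4 called genes reversed. The count over all genes was 2285 (703 higher, 1582 lower). Leaving out 1 library gave 1289 to 2068 changed genes (354 to 753 higher, 935 to 1341 lower), fewest without h3.3ko;HTR5 replicate 3. Higher genes made up 30.8% of calls, 46.2% after quantile normalization and 43.7% with median-of-ratios scaling. Samples with the same replicate number did not deviate together (r = -0.0427, 0.0236 and -0.0122), and a replicate block gave 1851 changed genes (547 higher, 1304 lower). The summed levels of PAL and 4CL and the share of PAL1 kept their direction in the alternatives run for them. These were exon length and the loss of each library in turn. Quantile normalization and median-of-ratios scaling were not run for the sums. The share of 4CL1 as deposited differed by -0.409 percentage points (exact permutation p = 0.5), by -0.00417 without h3.3ko;HTR5 replicate 2 and by -0.717 without replicate 3 of that group, so no direction is read from it. 4CL5 rested on the fewest reads of the 9 genes, 166 to 264 per library, and had the widest interval.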
